A study of Mus musculus with 8 samples.

Results

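Meiotic recombination and DNA damage response genes were followed in whole testis RNA of mice with and without Ing2, a PHD-finger protein of the mSin3A-HDAC corepressor complexes. The group holds 42 genes, listed by name with no level used in the rule, and ordered here by the step at which they act: break formation and end processing, strand exchange, crossover, and damage signalling. Of these, 38 were measured, out of 19938 genes with a probe set of their own. Mnd1 and Rnf8 share their probe sets with Mnd1-ps and Gm28043 and are not reported, and Xrcc2 and Rnf212 had no probe set of their own in the annotation used and were not analysed here. Where a gene had several probe sets, the brightest over all 8 arrays stands for it, and only Hfm1 and Nbn had a second one.

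The groups were 3 Ing2+/+ mice and 5 Ing2-/- mice, male and 2 to 3 months old, with 1 array of total testis RNA per mouse. In the knockout the second exon of Ing2, flanked by loxP sites, was deleted by a cross to EIIa-Cre mice, and the Cre was bred out with C57BL/6J mice, so that every cell of the body carries the deletion and not germ cells alone. In the paper, crosses of heterozygous mice from this stock gave both genotypes, and whether the mice of the arrays were littermates is not stated. The gene was targeted in embryonic stem cells of a strain other than C57BL/6J. DNA of that strain close to Ing2 may therefore differ between the groups together with the genotype, and its part was not tested. Differences that arise in meiotic cells and differences that arise around them cannot be told apart in these groups. Ing2 itself, whose probe set is not placed by exon in the annotation used, was measured at 7.43, 7.60 and 7.34 on the log2 scale in the Ing2+/+ mice. The Ing2-/- mice gave 5.06 to 5.64, and Ing2 fell by 2.16 (SE 0.127, adjusted p = 3.95e-04 from limma). In 4 of the 5 Ing2-/- mice its level lay under the array's median of probe sets to which no gene is given, so the fall is a lower limit.

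In meiotic prophase the SPO11 complex cuts both strands of the DNA, the ends are resected, and the recombinase DMC1 leads the single-stranded tails into the homologous chromosome. The joints that form are settled either as crossovers, with the MutS and MutL homologues and the HFM1 helicase, or without exchange. The ATM and ATR kinases report open breaks and unsynapsed chromosomes through their targets, and in the testis spermatocytes that keep breaks unrepaired are generally eliminated at the pachytene stage.

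Values are RMA levels on the log2 scale, so a difference of 1 is a doubling, and a level is a share of the RNA hybridized and not an amount per testis. Differences are Ing2-/- minus Ing2+/+, fitted with limma over all 35557 probe sets. A gene is called, and said to rise or fall, where its p, adjusted by Benjamini-Hochberg over all of these probe sets, is under 0.05. The median over an array was 6.41 to 6.45 for Ing2+/+ mice, compared with 6.46 to 6.53 for Ing2-/- mice. Across probe sets, each array correlated with the rest of its own group at a mean Pearson r of 0.995 for Ing2+/+ and 0.983 to 0.992 for Ing2-/- mice, lowest for Ing2-/- replicate 3, whose values stand apart in many of the results. In whole testis RNA, fewer cells of a type and less RNA per cell cannot be told apart. Of the 38 members, 37 lay on every array above the median level of unnamed probe sets, those to which the annotation gives no gene. The exception was Mei4, which acts with SPO11 in break formation and lay near that median.

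Of the 38 members, Hfm1 and Mei1 were called lower and Trip13 higher, and the other 35 were not called. That is 2 genes lower, against a background of 3.01% of all genes, and 1 gene higher, against 1.97%. Together they make 7.89% of the members, beside 4.98% of the 19938 genes. At the threshold of the study's methods, an unadjusted p under 0.001, limma called 0 members by their brightest probe sets. Of all genes, taken in the same way, 1.87% passed it lower and 0.883% higher, or 2.75% in all. The second probe set of Hfm1 did pass it, at an unadjusted p of 1.29e-04 from limma. The study's methods tested every probe set before reducing them to unique genes. At an unadjusted p under 0.05, 5 members were lower and 6 higher, beside 13.5% lower and 16.5% higher of all genes. The members thus passed these tests at about the rate of the whole array. Their median difference was 0.0106 and that of all genes 0.0166, with 18 members below 0 and 20 above. Single members ranged from −0.85 for Hfm1 to 0.33 for Exo1.

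**Figure D1:**
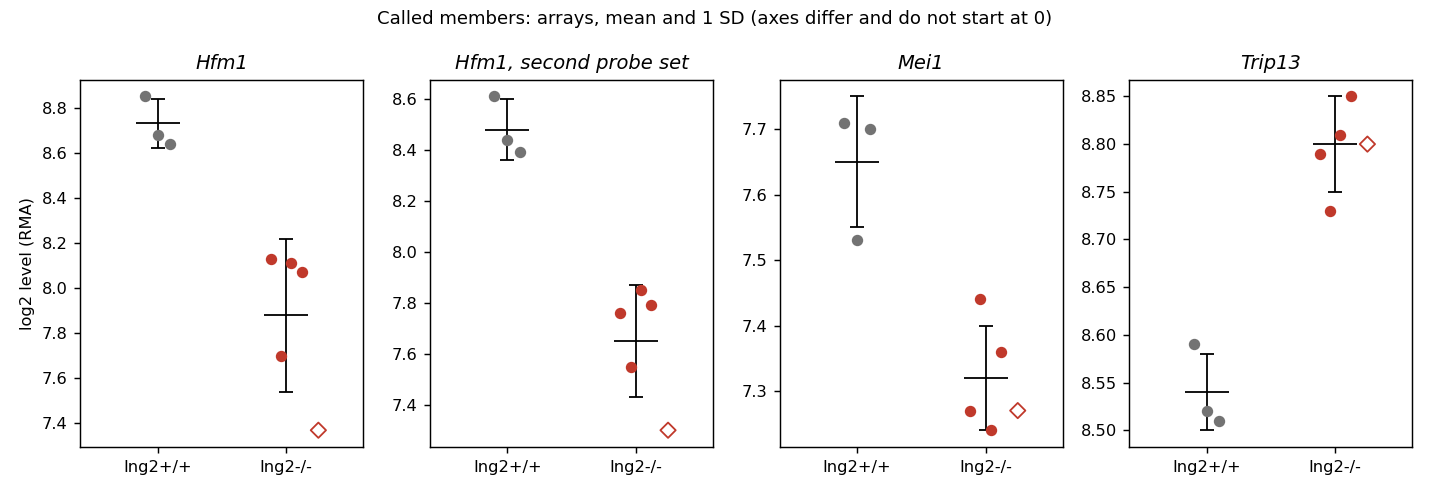
Log2 RMA levels of Hfm1 by both of its probe sets, Mei1 and Trip13 on each array of the 3 Ing2+/+ (grey) and 5 Ing2-/- testes (red, with replicate 3 as an open diamond). Bars give the mean and 1 SD, and the axes differ between panels. The Ing2-/- arrays of Hfm1 and Mei1 lie below all Ing2+/+ arrays and those of Trip13 above them.

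The promoters of the 3 called members are given to set the starts of the genes that moved beside those of all other genes. They come from RefSeq on GRCm38.p6, on the strand of the gene, from 250 bases before its start to 30 bases after it. Capitals mark every match on both strands to the letters of 6 known motifs. These were the palindrome of NRF1, written GCGCATGCGC, and for E2F either TTTCCCGC or the variant TTTGGCGC. The letters for MYB were CAACTG and also its variant CAACGG. The CRE was searched as TGACGTCA, the CCAAT box by the letters of its name, and the GC box as GGGCGG. In the printed promoters no motifs overlapped except a pair of GC boxes in Trip13. Hfm1 lies at chr5:106925861-106926140 on the minus strand, Trip13 at chr13:73937738-73938017 on the minus strand, and Mei1 at chr15:82082226-82082505 on the plus strand.
Hfm1: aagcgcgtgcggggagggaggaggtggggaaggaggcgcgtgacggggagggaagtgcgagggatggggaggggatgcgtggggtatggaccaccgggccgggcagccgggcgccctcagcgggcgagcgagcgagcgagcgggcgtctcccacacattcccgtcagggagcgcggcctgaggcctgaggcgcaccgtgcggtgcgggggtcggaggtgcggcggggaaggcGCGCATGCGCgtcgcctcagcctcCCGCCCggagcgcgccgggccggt
Trip13: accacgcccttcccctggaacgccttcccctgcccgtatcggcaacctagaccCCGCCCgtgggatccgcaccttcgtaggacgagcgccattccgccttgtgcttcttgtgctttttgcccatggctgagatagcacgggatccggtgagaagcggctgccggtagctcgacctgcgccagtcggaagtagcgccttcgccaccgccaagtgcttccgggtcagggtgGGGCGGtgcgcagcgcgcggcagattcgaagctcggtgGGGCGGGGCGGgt
Mei1: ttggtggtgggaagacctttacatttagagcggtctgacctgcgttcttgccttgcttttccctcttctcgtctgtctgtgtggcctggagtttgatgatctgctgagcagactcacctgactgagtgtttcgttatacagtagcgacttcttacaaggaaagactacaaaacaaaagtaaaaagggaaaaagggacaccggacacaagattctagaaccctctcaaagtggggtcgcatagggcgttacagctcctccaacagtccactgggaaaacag

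The Hfm1 promoter held the NRF1 palindrome from 18 to 9 bases before the start and 1 GC box just after the start. That palindrome was present in 0.971% of the 32851 promoters of the same length. The Trip13 promoter held 4 GC boxes, a motif present in 35.7% of promoters. The Mei1 promoter held no match to these letters. Over the whole window, which runs to 50 bases after the start, G and C made up 75.3% of the Hfm1 promoter, 67.3% of the Trip13 promoter and 46.7% of the Mei1 promoter, which held 41, 34 and 8 CpG dinucleotides. For the members as a whole, 32 promoters of 29 genes matched, with a median G and C content of 60.0% and 23 CpG, beside 52.7% and 7 CpG over all promoters. The GC box stood in 59.4% of member promoters and the CCAAT box in 59.4%, beside 35.7% and 37.4% of all promoters. The MYB letters stood in 9.38% of member promoters and 18.1% of all, and the CRE in 6.25% and 1.79%.

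The E2F letters were found in 6 of the 32 member promoters (18.8%), beside 1.56% of all promoters. These letters hold a CpG, of which member promoters had a median of 23 and all promoters 7. The shares were not matched for this. E2F proteins drive genes of DNA replication and repair in dividing cells. Each site is shown, in capitals, with 8 bases on either side, on the strand of the gene.
Chek2: gattagccGCGGGAAAccaagacg
Brca2: aggccacaGCGGGAAAcagacaca
Rad51c: ccgcgaggGCGGGAAAagcaaggg
Dmc1: ggccctcaTTTGGCGCcaagcccg
Msh5: cggaaaagGCGGGAAAgtgctgcg
Mdc1: tcagcctgTTTCCCGCcggtagcc
The first base of these matches lay 152 bases before the start in Chek2, 168 in Brca2, 5 in Rad51c, 65 in Msh5 and 16 in Mdc1, and 1 base after it in Dmc1. None of these 6 genes was called, and their differences ran from −0.15 for Rad51c to 0.28 for Brca2. A match is a run of letters and was not tested as a binding site.

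Break formation and end processing (7 members) gave 1 call, that of Mei1, which was lower. By position of the arrays, 3 members were lower and 2 higher with no overlap between the groups, or 5 of 7. Over all 38 members this held for 8 lower and 5 higher (34.2%), beside 14.9% lower and 16.7% higher of all genes. The median difference of the step was −0.13, or −0.0773 without Ing2-/- replicate 3.

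Mei1 encodes a protein required for meiotic breaks to form. Its levels were 7.71, 7.53 and 7.70 in Ing2+/+ replicates 1 to 3 and 7.27, 7.44, 7.27, 7.24 and 7.36 in Ing2-/- replicates 1 to 5. Every Ing2-/- array lay below every Ing2+/+ array, and replicate 3 lay among the others. Mei1 fell by 0.33 on the log2 scale (SE 0.0748, adjusted p = 0.0453 from limma), from 7.65 ± 0.10 (SD, n = 3) to 7.32 ± 0.08 (SD, n = 5), which is 0.795 of the Ing2+/+ level. The exact two-sided permutation test over the 56 splits of the arrays gave p = 0.0179, the smallest it can give. Hfm1 and Trip13 reached the same value, and so did Nbn, Rad50, Exo1, Tex15, Xrcc3 and Topbp1, which were not called. The call was lost without any 1 of the 3 Ing2+/+ arrays and without Ing2-/- replicate 1, 4 or 5. Differences of Mei1 ran from −0.39 to −0.30 over all leave-outs, and adjusted p-values from 0.0148 to 0.594 over all alternatives. Without an Ing2+/+ array, 0.181% to 0.582% of all genes were called lower and 0.0201% to 0.166% higher, beside 3.01% and 1.97% with all arrays.

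Spo11, the enzyme that makes the breaks, lay at 9.23, 9.25 and 9.25 in Ing2+/+ testes and at 9.12, 9.07, 8.27, 9.01 and 8.76 in Ing2-/- testes. All 5 Ing2-/- arrays lay below the narrow range of Ing2+/+ arrays, and replicate 3 lay far below the other 4. Spo11 was not called, with a difference of −0.40 (95% interval −0.80 to 0.01, adjusted p = 0.192 from limma). Without replicate 3 the difference was −0.25 and the adjusted p from limma 0.0982. Mei4 differed by −0.01 (adjusted p = 0.914 from limma).

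MRE11A, RAD50 and NBN form the complex that trims and signals broken ends, and none of their transcripts was called. Nbn lay at 8.62, 8.53 and 8.51 in Ing2+/+ testes and at 8.32, 8.25, 8.06, 8.32 and 8.18 in Ing2-/- testes. The groups of Nbn did not overlap, but its difference of −0.33 just missed the threshold (SE 0.0778, adjusted p = 0.0504 from limma). The second and dimmer probe set of Nbn gave the other sign, with a difference of 0.11 (adjusted p = 0.529 from limma) and overlapping groups, so the direction of Nbn depends on the probe set.

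Rad50 lay at 8.35, 8.20 and 8.17 in Ing2+/+ testes and at 8.45, 8.35, 8.59, 8.56 and 8.51 in Ing2-/- testes. The lowest Ing2-/- array of Rad50 equalled the highest Ing2+/+ array to 2 decimals, and it was above it in the deposited values. Its difference of 0.25 (SE 0.0774) was not called, with an adjusted p of 0.0853 from limma. Mre11a differed by −0.13 (adjusted p = 0.358 from limma), with overlapping groups. Exo1, the exonuclease that lengthens the single-stranded tails, lay at 7.27 to 7.36 in Ing2+/+ and at 7.49 to 7.94 in Ing2-/- testes, highest in replicate 3. Exo1 was above every Ing2+/+ array in 5 of 5 Ing2-/- testes, at a difference of 0.33 (SE 0.106, adjusted p = 0.0955 from limma). Leaving out replicate 3 brought its adjusted p from limma to 0.0326, at a difference of 0.25.

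**Figure D2:**
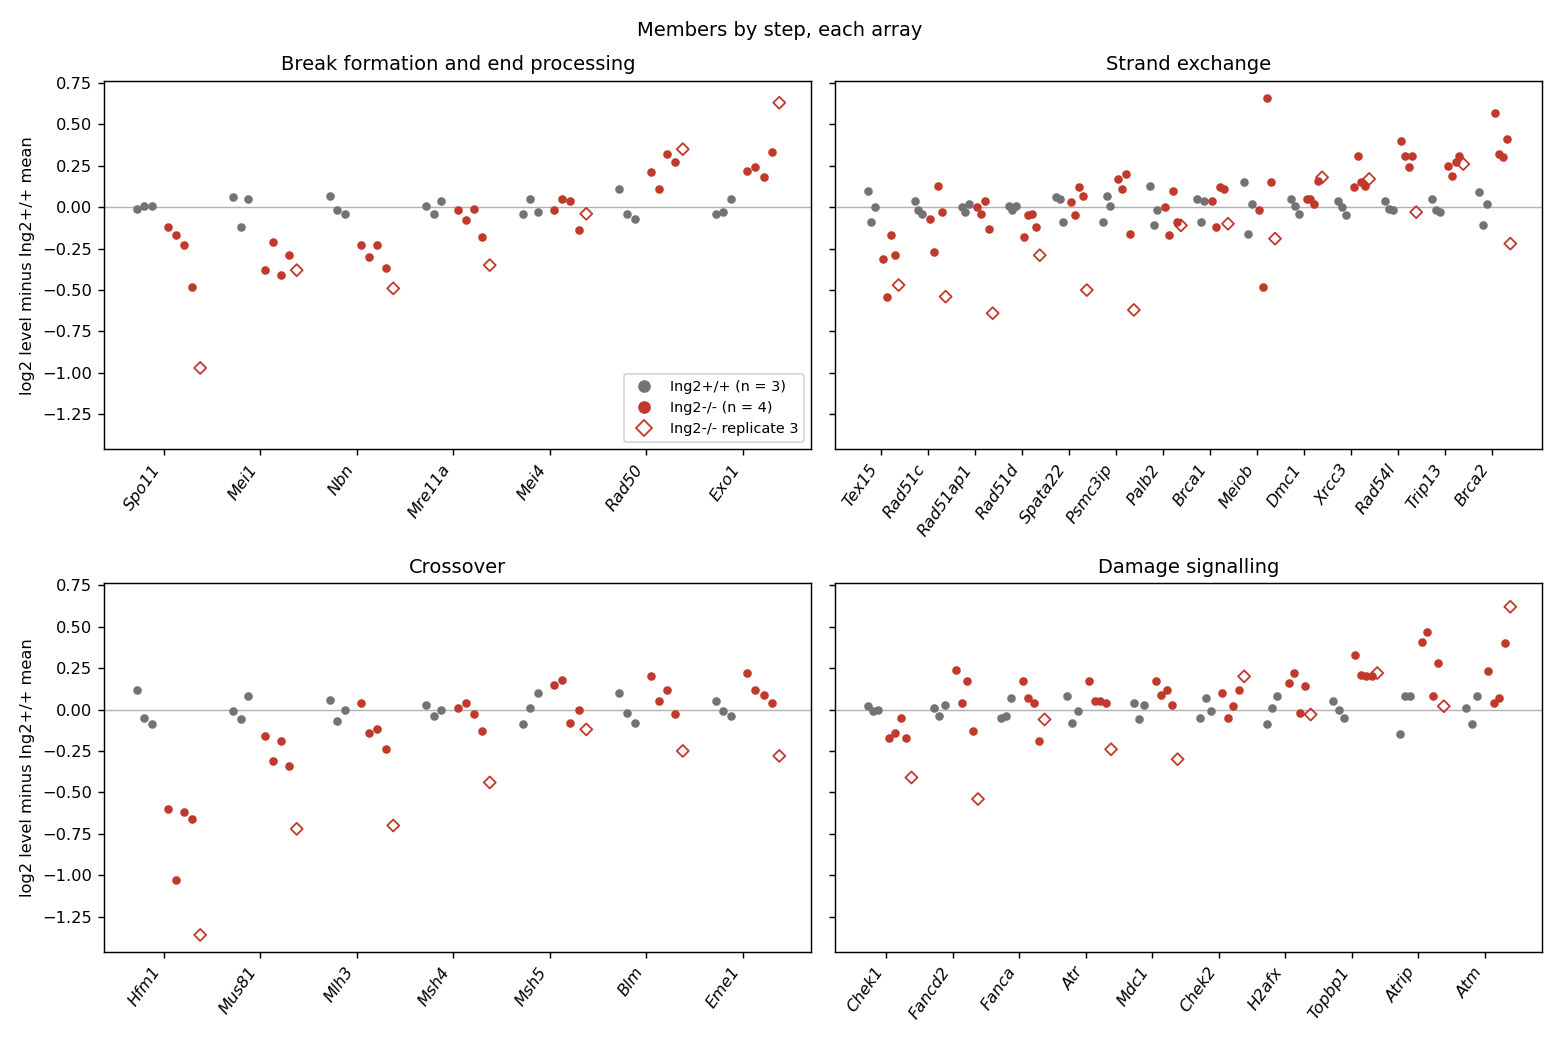
Level of each of the 38 members on each array relative to the average of the 3 Ing2+/+ arrays (log2), by step, for Ing2+/+ (grey) and Ing2-/- testes (red, with replicate 3 as an open diamond). In the crossover panel replicate 3 is the lowest array of all 7 genes, while Mei1, Trip13 and Topbp1 have it among the other Ing2-/- arrays.

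Strand exchange (14 members) gave 1 call, that of Trip13, with 7 members below 0 and 7 above and a median of −0.0224 that turned to 0.0536 without replicate 3. Trip13 encodes the AAA+ ATPase that remodels HORMA-domain proteins of the chromosome axis and is needed to complete recombination. Its levels were 8.59, 8.52 and 8.51 in Ing2+/+ testes and 8.79, 8.73, 8.80, 8.81 and 8.85 in Ing2-/- testes. The groups of Trip13 did not overlap, and neither was spread by more than an SD of 0.05.

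Trip13 rose by 0.25 on the log2 scale (SE 0.0588, adjusted p = 0.0473 from limma) and the sign turned to −0.36 when the arrays were shifted so that their Sertoli cell markers had the same median, which moved the median of all genes to −0.599. The call was lost without any 1 of the Ing2+/+ arrays and without Ing2-/- replicate 1, 2, 4 or 5. In these fits 0.0201% to 1.91% of all genes were called higher, beside 1.97% with all arrays. The difference of Trip13 stayed between 0.24 and 0.28 over the leave-outs, and the adjusted p-values over all alternatives ran from 0.0129 to 0.226.

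Tex15, which is needed for meiotic recombination, lay at 9.07, 8.88 and 8.97 in Ing2+/+ testes and at 8.66, 8.43, 8.50, 8.80 and 8.68 in Ing2-/- testes. Although no Ing2-/- array reached the lowest Ing2+/+ array, the difference of −0.36 (SE 0.0949) was not called, at an adjusted p of 0.0622 from limma. Xrcc3, which acts in homologous recombination, lay at 7.49, 7.45 and 7.40 in Ing2+/+ testes and at 7.57, 7.76, 7.62, 7.60 and 7.58 in Ing2-/- testes. Here too the groups did not overlap, with all Ing2-/- arrays higher and replicate 2 highest, at a difference of 0.18 (SE 0.0666, adjusted p = 0.129 from limma).

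The recombinase itself differed little. Dmc1, the recombinase found only in meiosis, lay at 8.28, 8.24 and 8.19 in Ing2+/+ testes and at 8.28, 8.28, 8.41, 8.25 and 8.39 in Ing2-/- testes. Its groups overlapped, at a difference of 0.09 (95% interval −0.06 to 0.24, adjusted p = 0.404 from limma). Brca1, which promotes resection, lay at 8.10, 7.96 and 8.09 and at 8.09, 7.93, 7.95, 8.17 and 8.16. The difference of Brca1 was 0.01 (95% interval −0.17 to 0.19, adjusted p = 0.947 from limma), and its sign turned without Ing2+/+ replicate 2, Ing2-/- replicate 4 or Ing2-/- replicate 5.

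Brca2, which acts at the single-stranded tails, lay at 8.61, 8.41 and 8.54 in Ing2+/+ testes and at 9.09, 8.84, 8.30, 8.82 and 8.93 in Ing2-/- testes. Of the Ing2-/- arrays 4 lay above all Ing2+/+ arrays and replicate 3 lay below all of them. The difference was 0.28 (adjusted p = 0.289 from limma) with replicate 3 and 0.40 (adjusted p = 0.0206 from limma) without it. Rad54l, a motor protein that assists strand exchange, had the same arrangement, with 0.24 (adjusted p = 0.150) and 0.31 (adjusted p = 0.0160, both from limma).

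The other 7 members of this step were Rad51c (−0.15), Rad51d (−0.14) and Rad51ap1 (−0.15), which assist strand exchange, Palb2 (−0.06), which links BRCA1 to BRCA2, Psmc3ip (−0.06), the partner of Mnd1, and the paired single-strand binding factors Spata22 (−0.07) and Meiob (0.02). Rad51d was lower in 5 of 5 Ing2-/- testes without overlap, at an adjusted p of 0.256 from limma. Meiob had the widest interval of the step, −0.48 to 0.53.

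Crossover (7 members) held the member with the largest difference. Hfm1 encodes a DNA helicase required for crossover formation and full synapsis in meiosis. Its levels were 8.85, 8.68 and 8.64 in Ing2+/+ testes and 8.13, 7.70, 7.37, 8.11 and 8.07 in Ing2-/- testes. All Ing2-/- arrays lay below all Ing2+/+ arrays, and replicates 3 and 2 were lowest. Hfm1 fell by 0.85 on the log2 scale (SE 0.177, adjusted p = 0.0377 from limma), from 8.73 ± 0.11 (SD, n = 3) to 7.88 ± 0.34 (SD, n = 5), which is 0.555 of the Ing2+/+ level.

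The second Hfm1 probe set gave the same picture, at 8.61, 8.44 and 8.39 against 7.76, 7.55, 7.30, 7.85 and 7.79. It fell by 0.83 (SE 0.129, adjusted p = 0.0166 from limma). Both probe sets read the same RNA of the same mice and are not independent samples. Without Ing2-/- replicate 3 the brighter probe set differed by −0.72 (adjusted p = 0.00941 from limma). The call of the brighter probe set was lost without any 1 of the Ing2+/+ arrays and without Ing2-/- replicate 2 or 5. Its differences ran from −0.91 to −0.72 over all leave-outs, and its adjusted p from 0.00616 to 0.150 over all alternatives. Calls over all genes fell too, to 1.74% lower and 0.993% higher without Ing2-/- replicate 2. Without Ing2-/- replicate 5 they fell to 0.868% and 0.201%, and without an Ing2+/+ array as given for Mei1.

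Mus81 encodes the catalytic subunit of a structure-specific endonuclease that resolves part of the joints. Its levels were 8.46, 8.41 and 8.55 in Ing2+/+ testes and 8.31, 8.16, 7.75, 8.28 and 8.13 in Ing2-/- testes. The groups of Mus81 did not overlap and replicate 3 was lowest, at a difference of −0.34 (SE 0.123, adjusted p = 0.117 from limma). Without replicate 3, Mus81 differed by −0.25 with an adjusted p of 0.0489 from limma. Eme1, the partner of MUS81 in the endonuclease, differed by 0.04 with an adjusted p of 0.853 from limma.

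Mlh3, the MutL homologue that acts at crossover sites, lay at 8.51, 8.38 and 8.45 in Ing2+/+ testes and at 8.49, 8.31, 7.75, 8.33 and 8.21 in Ing2-/- testes. Replicates 1 and 3 mark the ends of the wide Ing2-/- range, and replicate 1 lay among the Ing2+/+ arrays. The difference of Mlh3 was −0.23 (SE 0.148, adjusted p = 0.345 from limma) and moved to −0.11 without replicate 3. The MutS homologues Msh4 (−0.11) and Msh5 (0.02) and Blm (0.02), the helicase that dissolves joints, overlapped between the groups. The median of the step was −0.11, and −0.0242 without replicate 3.

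**Figure D3:**
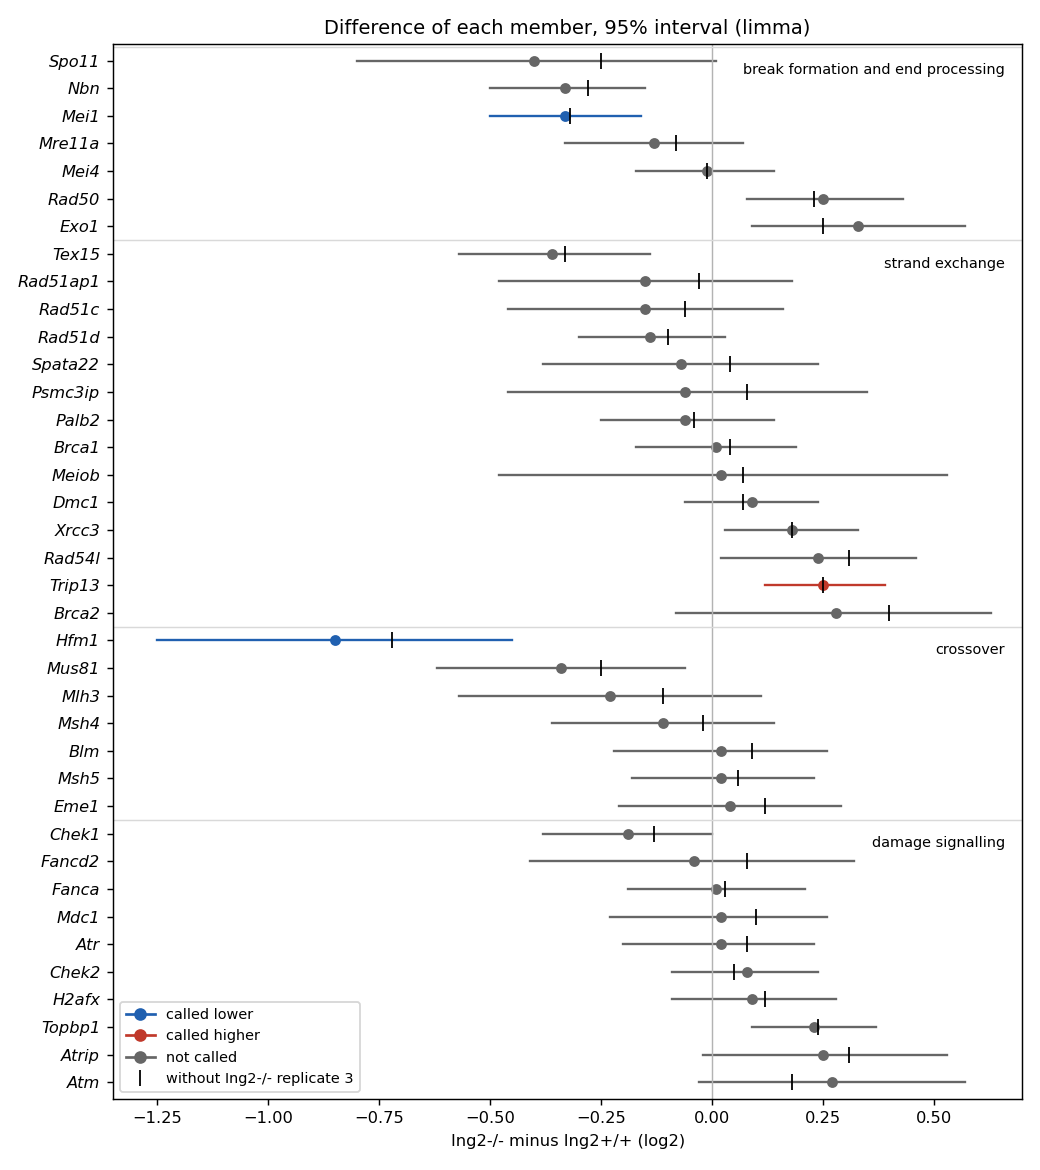
Difference of each member between 5 Ing2-/- and 3 Ing2+/+ testes (log2, x axis) with its 95% interval from limma, by step. Blue and red points were called lower and higher, grey points were not called, and black ticks give the difference without Ing2-/- replicate 3. The intervals of the called Hfm1, Mei1 and Trip13 lie away from 0, as do those of Nbn, Rad50, Exo1, Tex15, Xrcc3, Rad54l, Mus81 and Topbp1, which were not called, and the ticks of crossover members lie to the right of the points.

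Damage signalling (10 members) gave 0 calls by limma and by the random variance model of the methods. By limma 1 member was higher at an unadjusted p under 0.05. Differences were small and mostly positive, 8 above 0 and 2 below, with a median of 0.0464, and 0.0887 without replicate 3. Topbp1, the activator of ATR, lay at 9.41, 9.36 and 9.31 in Ing2+/+ testes and at 9.69, 9.57, 9.58, 9.56 and 9.56 in Ing2-/- testes. The Ing2-/- arrays of Topbp1 all lay above the Ing2+/+ arrays, and 4 of them within 0.02 of each other. Its difference of 0.23 (SE 0.0612) was not called, with an adjusted p of 0.0619 from limma, which became 0.0378 without replicate 3.

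Atm, the kinase that answers double-strand breaks, lay at 7.49, 7.39 and 7.56 in Ing2+/+ testes and at 7.71, 7.52, 8.10, 7.55 and 7.88 in Ing2-/- testes. Replicate 3 was highest for Atm, where most members had it lowest, and replicates 2 and 4 lay within the Ing2+/+ range. The difference of Atm was 0.27 (95% interval −0.03 to 0.57, adjusted p = 0.223 from limma). Atr, the kinase that answers single-stranded DNA and, in spermatocytes, unsynapsed chromosomes, differed by 0.02 (adjusted p = 0.939 from limma).

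Atrip, the partner of ATR, lay at 7.03, 7.26 and 7.26 in Ing2+/+ testes and at 7.59, 7.65, 7.20, 7.26 and 7.46 in Ing2-/- testes. The groups overlapped through replicate 3 alone, since replicate 4 lay just above the highest Ing2+/+ array in the deposited values, at a difference of 0.25 (SE 0.120, adjusted p = 0.208 from limma). Chek1, the effector kinase below ATR, lay at 7.75, 7.72 and 7.73 in Ing2+/+ testes and at 7.56, 7.59, 7.32, 7.68 and 7.56 in Ing2-/- testes. All Ing2-/- arrays of Chek1 lay below its Ing2+/+ arrays, which were spread by an SD of 0.02, at a difference of −0.19 (SE 0.0837, adjusted p = 0.181 from limma).

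H2afx, now named H2ax, encodes the histone variant that ATM and ATR phosphorylate at breaks and over the sex chromosomes of spermatocytes. Its levels were 8.51, 8.61 and 8.68 in Ing2+/+ testes and 8.76, 8.82, 8.57, 8.58 and 8.74 in Ing2-/- testes. The groups overlapped, at a difference of 0.09 (95% interval −0.09 to 0.28, adjusted p = 0.499 from limma), and these arrays measure the transcript, not the phosphorylated protein. Mdc1 (0.02), which binds phosphorylated H2AX, Chek2 (0.08), the effector kinase below ATM, and the Fanconi anaemia genes Fanca (0.01) and Fancd2 (−0.04), which serve the repair of DNA crosslinks, all overlapped between the groups.

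Ing2-/- replicate 3 took an end of the Ing2-/- range in many genes. It was the lowest of the 5 Ing2-/- arrays in 23 of 38 members (60.5%), beside 32.8% of all genes, and the highest in 5 members, beside 33.7% of all genes. The members shared this with related lists, for it was lowest in 70.4% of the other recombination genes, 60.6% of the other damage response genes, 70.0% of the synaptonemal complex and cohesin markers and all 11 pachytene markers described below. In the crossover step it was the lowest of all 8 arrays in 7 of 7 members. Ing2-/- arrays were also more spread than Ing2+/+ arrays, with a median SD over the members of 0.158 against 0.0626, and with the larger SD in Ing2-/- testes for 35 of 38 members. Over all genes the median SD was 0.132 against 0.0718, with the larger SD in Ing2-/- testes for 15285 of 19938.

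Without replicate 3, 4 members were called lower (Mei1, Nbn, Hfm1 and Mus81) and 5 higher (Exo1, Brca2, Trip13, Rad54l and Topbp1), which is 23.7% of the members. The background rose with it, to 7.76% of all genes lower and 8.72% higher. The call of Nbn is that of its brighter probe set, while the second then differed by 0.06 (adjusted p = 0.732 from limma). At an unadjusted p under 0.05 there were then 7 members lower and 8 higher, beside 14.9% and 17.7% of all genes. With no overlap between the groups there were 8 lower and 8 higher, beside 15.6% and 18.2%. The median difference of the members became 0.0522. The counts at an unadjusted p under 0.05 and without overlap, as well as the medians of the steps without replicate 3, were added after seeing the data.

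The step scores, the mean over a step of the level minus the Ing2+/+ mean, put these shifts side by side with markers of the testis cell types. The crossover score was −0.02, −0.16, −0.55, −0.12 and −0.19 in Ing2-/- replicates 1 to 5, and between −0.03 and 0.04 in Ing2+/+ testes. As a mean over 7 genes it is weighted by Hfm1, which differed by −0.85, or by −0.72 without replicate 3. The median of the step was −0.11, or −0.0242 without replicate 3, with 4 members below 0 and 3 above with all arrays. The damage signalling score was 0.18, 0.10, −0.05, 0.07 and 0.07. Replicate 3 was lowest in both, while the other 4 Ing2-/- arrays lay above the Ing2+/+ range in damage signalling. The break formation score ran from −0.18 to −0.05 and the strand exchange score from −0.22 to 0.15, lowest in replicate 3 in both.

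Marker genes of pachytene spermatocytes, in which crossovers mature, had differences below 0 in 11 of 11 cases. Their median difference was −0.21, with 1 called lower, and scores from −0.67 in replicate 3 to −0.16. Their summed level, as the mean over the markers, lay at 10.56 to 10.60 in Ing2+/+ and 9.91 to 10.42 in Ing2-/- testes. The 10 markers of the synaptonemal complex and cohesin, which earlier spermatocytes also express, had a median of −0.0687 and scores from −0.38 in replicate 3 to 0.02. The 14 spermatogonial markers had a median of 0.14, with scores from 0.06 to 0.35, highest in replicate 3. Of their differences 12 were above 0 and 2 below, and 1 marker was called lower and 0 higher. All 35 of these germ cell markers were measured above the level of unnamed probe sets on at least some arrays.

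Markers of spermatids also had medians below 0, and those of somatic cells had medians above 0. Round spermatid markers (13) had a median of −0.34 and mean levels of 10.30 to 10.34 against 9.44 to 10.17, and elongating spermatid markers (13) a median of −0.22 and mean levels of 11.29 to 11.40 against 10.73 to 11.24. Sertoli cell markers (16) had a median of 0.55 and mean levels of 8.36 to 8.40 against 8.69 to 9.54, and Leydig cell markers (8) a median of 0.64 and 8.75 to 8.83 against 9.11 to 10.01. Replicate 3 had the lowest spermatid scores and the highest Sertoli and Leydig scores of all arrays, 1.16 and 1.21. Macrophage markers (9) had a median of 0.38. Of 7 epididymis markers, 4 (Lcn8, Spag11b, Rnase10 and Defb41) stayed at or below the level of unnamed probe sets on every array. The part of the cell mix in the differences of the members was not tested.

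**Figure D4:**
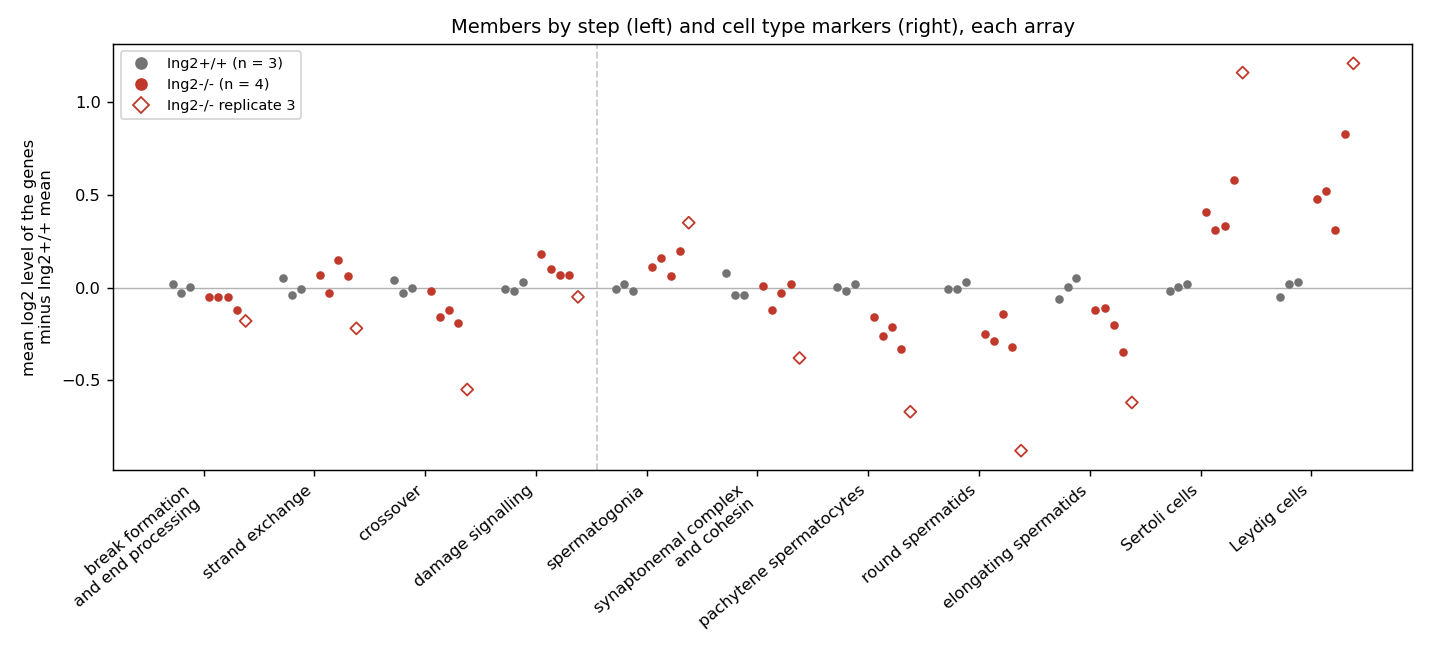
Mean log2 level of the genes of each list on each array relative to the average of the 3 Ing2+/+ arrays, for the 4 steps of the members (left of the dashed line) and for markers of testis cell types (right), in Ing2+/+ (grey) and Ing2-/- testes (red, with replicate 3 as an open diamond). The Sertoli and Leydig scores of the Ing2-/- arrays lie between 0.31 and 1.21, whereas the step scores of the members lie between −0.55 and 0.18.

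Other genes of the same pathways, taken from lists of textbook members, were also measured. Of 27 further recombination genes measured, limma called 0, and their median difference was −0.0896. At an unadjusted p under 0.05 from limma 1 was lower and 2 higher, beside 13.5% lower and 16.5% higher of all genes. The smallest p-values were those of Rpa2 and Rpa1, subunits of the protein that coats single-stranded DNA, which differed by 0.27 (adjusted p = 0.0521 from limma) and by −0.36 (adjusted p = 0.0928 from limma). Of 33 further damage response genes, 2 were called lower and 1 higher (9.09%), beside 4.98% of all genes, with a median of −0.0317. Wrn, a RecQ helicase, fell by 0.65 on the log2 scale (adjusted p = 0.0303 from limma). Lig4, the ligase of non-homologous end joining, fell by 0.55 (adjusted p = 0.0401 from limma), and Fancm, a translocase that acts on stalled forks and joints, rose by 0.37 (adjusted p = 0.0282 from limma). The 5 Ing2-/- arrays of each of these 3 genes lay on 1 side of the 3 Ing2+/+ arrays, as they did in 31.6% of all genes. The number of arrays limits the precision of all these comparisons.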

How the data were processed

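Total RNA of whole testes was extracted with Trizol and measured on 8 arrays (Affymetrix Mouse Gene ST), 3 from Ing2+/+ and 5 from Ing2-/- mice, without pooling. The deposited values are on the log2 scale and were computed by the authors with RMA in Expression Console, which corrects background, brings arrays to a common distribution and summarizes each probe set, so a change in total RNA per testis leaves no trace in them. These values were used as deposited. Genes were named from the platform annotation. Of 21789 probe sets with exactly 1 symbol, 21698 took the symbol that RefSeq on GRCm38.p6 gives for their gene identifier, changed or not. A further 1621 carried several symbols and 12147 none. No column of values was left out.

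A linear model of genotype, without covariate, was fitted by limma 3.58.1 under R 4.3.3 (lmFit, then eBayes, with 2.85 prior degrees of freedom), two-sided, with Benjamini-Hochberg adjustment over 35557 probe sets. The study's methods used a random variance model, which was fitted as an alternative. Single values were also compared by exact permutation of the arrays. The model was tested on simulated data. Promoters came from RefSeq on GRCm38.p6 and were searched by exact letters. Plots were made in Python 3.11.15 (matplotlib 3.10.9).

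Values per array are given for called members, for up to 3 members of each step with the smallest p, and for Spo11, Dmc1, Atm, Brca1 and H2afx; further genes of the pathways are named where called, and, in a list with no call, the 2 of least p; Exo1, Brca2, Rad54l and other members outside this rule were described after their values were seen. The members and all gene lists were chosen with earlier results of these data known. Alternative settings were a block for replicate number, leaving out each array in turn, filters on level and on annotation, other scalings, other variance models, array weights and averaging the probe sets of a gene.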

Additional observations from a re-analysis of the deposited data

Results flagged for a closer look

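Among the 40 probe sets of the members, 4 had 1 Ing2-/- testis set far apart from the other 4 (gap over range above 0.71, Dixon's limit for 5 samples), a test by which chance alone marks about 1 in 20 groups. The genes make 10.5% of the members, beside 10.7% of all genes. In Ing2-/- replicate 3, Rad51ap1 lay at 6.999 with the other 4 at 7.51 to 7.68, and Spata22 at 7.74 with the others at 8.19 to 8.36. Xrcc3 lay at 7.76 in Ing2-/- replicate 2, with the others at 7.57 to 7.62, and Topbp1 at 9.69 in replicate 1, with the others at 9.56 to 9.58.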

How the results depend on the processing

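Few arrays, close to the threshold, carry the calls. When 1 array was left out, 0 to 4 members were called lower and 0 to 5 higher, beside 2 and 1 with all arrays. Over all genes these fits called 0.181% to 7.76% lower and 0.0201% to 8.72% higher, beside 3.01% and 1.97%. By the brightest probe sets, 0 to 2 members passed an unadjusted p under 0.001, beside 0. The highest counts came without Ing2-/- replicate 3. The median difference of the members ran from −0.0258 to 0.0522. With the replicate number as a block, 0 members were called lower and 0 higher by limma, 1 passed the unadjusted p under 0.001, and 0 of all genes were called. Numbers 4 and 5 occur in Ing2-/- mice alone, so this fit compares the genotypes on replicates 1 to 3 only, with fewer residual degrees of freedom. It therefore cannot tell an effect of the block from the loss of these arrays. Same-numbered arrays deviated together with correlations of −0.057, 0.184 and 0.006, so the numbers were not taken as pairs. Counts of members lower, higher and under p 0.001 were 4, 1 and 1 with probe sets above the median level (all genes 5.92% lower and 5.66% higher), 4, 2 and 1 with probe sets of 1 symbol (4.52% and 3.73%), 4, 0 and 3 after cyclic loess (4.53% and 1.45%), 0, 0 and 1 with each probe set's own variance (0.446% and 0.266%), and 4, 6 and 3 with array weights (9.28% and 11.3%). With an intensity trend and robust estimation 1 was lower and 0 higher (2.33% and 1.12%), and with a gene's probe sets averaged 1 passed p under 0.001. The random variance model gave 2 lower and 1 higher, as with all arrays in limma.

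With arrays set to an equal median of Sertoli markers, all genes moved to a median of −0.599 and the members to −0.605, with 25 of 38 lower, 0 higher and 3 under p 0.001, beside 76.1% of all genes lower and 0.0552% higher. The differences then turned in Trip13 (−0.36), Rad50 (−0.36), Xrcc3 (−0.44), Topbp1 (−0.38), Atrip (−0.36), Dmc1 (−0.53), Atm (−0.35), Brca1 (−0.60) and H2afx (−0.52). With an equal median of pachytene markers, all genes moved to 0.25 and the members to 0.244, with 0 lower, 0 higher and 1 under p 0.001, beside 0.461% and 0.186% of all genes, and Mlh3 (0.004) and Chek1 (0.04) turned. These turns follow from the shift of every gene by construction. Brca1 also turned with the block (−0.06), after cyclic loess (−0.03) and without Ing2+/+ replicate 2 (−0.03) or Ing2-/- replicate 4 (−0.02) or 5 (−0.01). Over all named members, 256 values kept their direction and side of the threshold, 30 lost the call, 21 gained it and 16 turned. For the other changes of call the cause was not tested.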
